A study of Mus musculus with 6 samples.

Results

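The nuclear genes of respiratory complex I were followed in articular cartilage of knockout (KO) and wildtype (WT) mice. They were taken as every gene of the deposited table whose name begins with Nduf, leaving out 4 names that contain -ps. This gave 48 of 34709 genes. All 48 had a mean of at least 0.5 FPKM (fragments per kilobase of transcript scaled to library size, a level per unit of length) over the libraries and were among the 15373 genes tested. By name and annotation, 46 were genes for subunits or assembly factors and 2, Ndufs6b and Ndufb4c, were annotated as processed pseudogenes. Both groups were male C57BL/6J mice of 18 months, an age taken from the table's column names and the study's text, and differed by the knockout, for which the study's methods name no tissue-specific driver. There were 6 libraries (KO, n = 3; WT, n = 3), and RNA was taken from whole cartilage. In whole tissue, a smaller number of cells and less RNA per cell cannot be told apart.

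Complex I is the entry point of the respiratory chain. It takes electrons from NADH, passes them through a flavin and a chain of iron-sulfur clusters to ubiquinone, and pumps protons across the inner mitochondrial membrane. A matrix arm holds the redox centres and a membrane arm holds the pumps. The core subunits of the matrix arm are encoded in the nucleus, those of the membrane arm in mitochondrial DNA, and both are wrapped by accessory subunits that are all encoded in the nucleus. Assembly factors bind intermediates and are absent from the finished enzyme.

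KO replicates 2 and 3 differed far less from each other than any other pair of libraries. Their noise ratio (the squared difference of counts relative to Poisson sampling) was 5.82, against 24.2 to 87.2 for the other pairs, and they were counted as 1 sample, so that 2 KO samples were compared with 3 WT samples. KO replicate 1 was as far from them (74.99 and 76.5) as the WT libraries were (65.1 to 87.2). Total counts were 52268311 to 63331135 per library, of which the 48 genes took 0.183 to 0.235%. The tissue was checked against 14 chondrocyte markers, of which 11 reached a mean of 0.5 FPKM, with Prg4 and Chad leading and Matn1, Matn3 and Col9a1 at or near 0. Their summed level was 617 to 1465 FPKM. Of 9 lists of other cell types, 2 were far above this, and the osteoblast and osteocyte list was above it library by library. The 10 neutrophil and granulocyte precursor genes summed to 51634 to 63114 FPKM in KO and 27296 to 44208 FPKM in WT, and the 9 erythroid genes to 24987 to 60736 FPKM in KO and 71768 to 108619 FPKM in WT. Lower sums that also set the groups apart, all lower in KO, were those of B cell (91.5 to 145 against 290.1 to 326 FPKM), osteoclast (369 to 423 against 502 to 1247 FPKM), adipocyte (20.03 to 52.6 against 73.9 to 208 FPKM) and endothelial markers (24.9 to 26.3 against 27.3 to 41.6 FPKM). The groups overlapped in the sums of chondrocyte, osteoblast and osteocyte (1194 to 2792 FPKM over all libraries), macrophage (279 to 432 FPKM) and skeletal muscle markers (4.93 to 463 FPKM). Within each library the osteoblast and osteocyte sum exceeded the chondrocyte sum. In KO it was 1678, 1194 and 1208 FPKM, against 1465, 644 and 653 FPKM. In WT it was 2792, 2399 and 1371 FPKM, against 617, 852 and 770 FPKM. The part of these cells in the differences between KO and WT below was not tested.

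Transcripts of the Nduf-named genes were abundant but spread over a wide range. Among the 48 genes, 7 had a mean of 50 FPKM or more, 25 lay from 10 to 50 FPKM and 16 were under 10 FPKM. The membrane-arm subunit Ndufb11 was highest, at 78.6 FPKM, and the pseudogene Ndufs6b lowest, at 0.950 FPKM. The role groups differed in level: the median was 26.3 FPKM for 7 core subunits, 19.7 for 10 accessory subunits of the matrix arm, 33.0 for 9 of the proximal membrane arm and 26.7 for 10 of the distal membrane arm, against 5.24 FPKM for 8 assembly factors. No assembly factor exceeded 9.65 FPKM, which was Ndufaf8. The 7 mitochondrially encoded subunits had a median of 843 FPKM. Except for Ndufs6b, with as few as 9 counts in a library, each of the 48 genes had at least 165 counts in every library. Counting error was not compared with the spread between libraries.

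**Figure D1:**
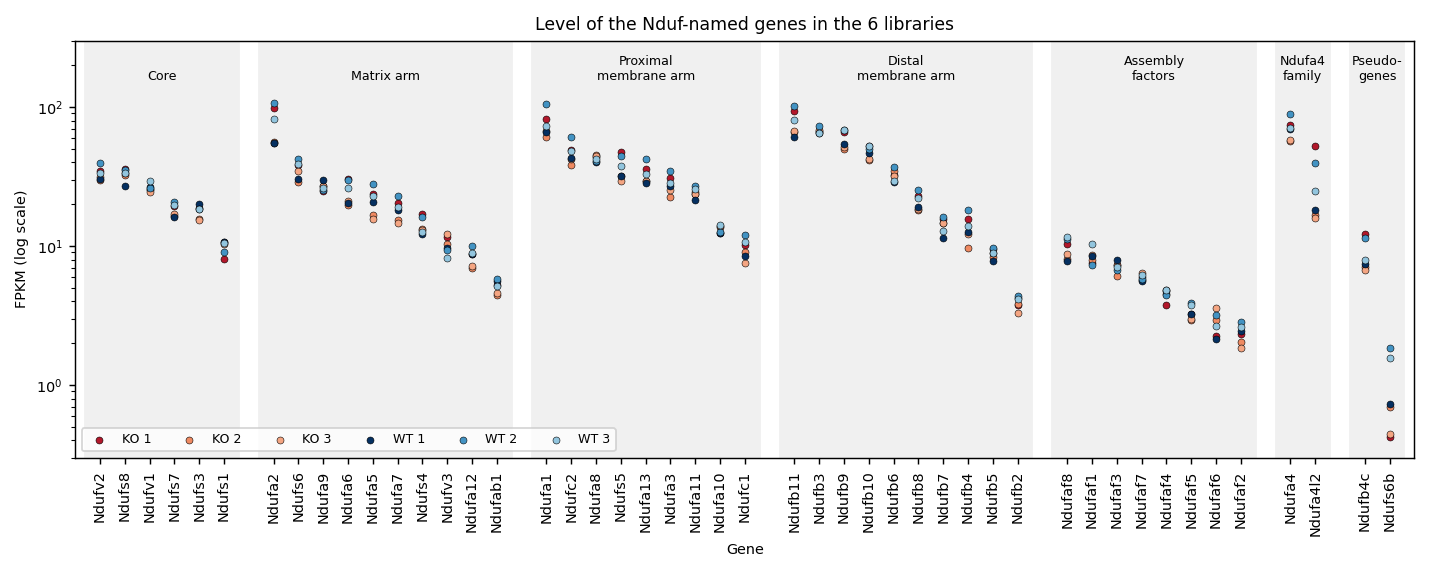
Level of 47 of the 48 Nduf-named genes in FPKM (log scale), each point 1 library, with genes grouped by role and ordered by mean level. The core and accessory subunits span from Ndufb2, with a mean of 3.93 FPKM, to Ndufb11, with 78.6 FPKM, while the 8 assembly factors lie between 2.35 and 9.65 FPKM.

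The -ps names that were left out included a copy with a higher level than its gene. Ndufa12, an accessory subunit of the matrix arm, had a mean of 8.46 FPKM, whereas its annotated processed pseudogene Ndufa12-ps had 33.7 FPKM. A processed pseudogene is a copy of a spliced transcript, so the split of reads between the pair is uncertain. Ndufa12-ps also lies wholly within the span of Rabgef1 on the same strand, which had a mean of 8.24 FPKM. The source of its reads was not tested. Ndufb1-ps, which the table annotates as protein coding, stood at 29.9 FPKM, and no gene named Ndufb1 was found in the table. Ndufab1-ps and Ndufs5-ps were lower, at 3.63 and 1.06 FPKM. Ndufs5-ps lies wholly within Zbtb20 on the same strand (mean 0.953 FPKM). The log2 differences of these 4 between KO and WT lay between -0.17 and 0.01.

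To see which sequence elements these genes share around their starts, 300-base windows from RefSeq (GRCm38.p6), 250 bases before and 50 after the start of transcription, were searched on both strands. Windows were found for 40 of the 48 genes, 42 windows in all after repeated sequences were dropped, which was not done for the windows of tested genes. Those without a window included Ndufa2, Ndufa4l2, Ndufaf6, Ndufb4c, Ndufb9, Ndufs1 and Ndufs6b. The NRF1 motif (GCGC, any base, then TGCGC), named for the factor that binds many nuclear genes of respiration, was present in 10 windows of 9 genes (23.8%, against 9.41% of 13163 windows of tested genes). The YY1 motif AAGATGGC was present in 8 windows (19.0% against 4.27%), and the ETS motif CCGGAAG, which GABP binds, in 6 (14.3% against 16.8%). A TATAAA sequence was found in 5 windows (11.9% against 7.61%). In all, 21 genes had an ETS, NRF1 or YY1 motif and 19 had none, and no matches of different motifs overlapped. A match describes the letters in the window and says nothing of binding.

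The YY1 matches had a common place: all 8 lay after the start of transcription, with their first base between positions 11 and 39. In 7 of the 8, the ATG inside the motif was an annotated start codon (GENCODE vM21). Ndufaf8 was the exception. Among all tested genes with this motif, 166 of 562 windows (29.5%) had it at a start codon. These 562 windows were counted with the motif on either strand. A motif on the opposite strand holds no ATG on the strand of the gene and could not be counted at a start codon. All 8 matches above lie on the strand of the gene, so the 29.5% is not a like-for-like share. The share among windows with the motif on the strand of the gene was not computed. The 8 stretches are shown for this shared position, 30 bases each on the strand of the gene, with the motif in capitals.
Ndufa3 (chr7:3617384-3617413, plus strand): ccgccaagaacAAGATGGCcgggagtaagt
Ndufa9 (chr6:126849097-126849126, minus strand): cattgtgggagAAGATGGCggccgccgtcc
Ndufaf8 (chr11:120098933-120098962, plus strand): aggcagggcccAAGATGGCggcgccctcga
Ndufb8 (chr19:44555393-44555422, minus strand): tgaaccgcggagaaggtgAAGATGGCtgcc
Ndufc1 (chr3:51408915-51408944, minus strand): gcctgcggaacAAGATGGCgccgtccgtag
Ndufs4 (chr13:114388045-114388074, minus strand): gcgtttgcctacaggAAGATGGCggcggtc
Ndufs6 (chr13:73328433-73328462, minus strand): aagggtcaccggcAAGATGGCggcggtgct
Ndufs7 (chr10:80249462-80249491, plus strand): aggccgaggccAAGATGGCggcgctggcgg

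NRF1 and ETS matches were scattered from position -232 to position 24. Those of Ndufa8, Ndufaf5, Ndufb7 and Ndufs3, whose levels are given below, and of Ndufb4, the gene with the most matches (3 NRF1 motifs), are shown with the motif in capitals. The NRF1 motifs of Ndufb4 and the second ETS motif of Ndufs3 are on the opposite strand and so read as the reverse complement.
Ndufa8, NRF1 from position -30 (chr2:36049349-36049378, minus strand): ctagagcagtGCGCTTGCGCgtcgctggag
Ndufaf5, NRF1 from position 17 (chr2:140170652-140170681, plus strand): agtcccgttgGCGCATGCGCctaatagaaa
Ndufb4, NRF1 from position -191 (chr16:37654540-37654569, minus strand): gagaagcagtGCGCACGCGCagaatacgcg
Ndufb4, NRF1 from position -79 (chr16:37654428-37654457, minus strand): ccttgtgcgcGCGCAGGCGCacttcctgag
Ndufb4, NRF1 from position -22 (chr16:37654371-37654400, minus strand): cctcatatccGCGCAGGCGCagatgtgcgc
Ndufb7, ETS from position -20 (chr8:83566727-83566756, plus strand): gcctagatgacCCGGAAGacactgaagggg
Ndufs3, ETS from position -27 (chr2:90904730-90904759, minus strand): cccgcgtccgcCCGGAAGaagagtcactgc
Ndufs3, ETS from position 2 (chr2:90904702-90904731, minus strand): gcacatttccaCTTCCGGtccgtgcccttg

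KO and WT were then compared, the study having asked how the knockout alters energy metabolism in cartilage. None of the 48 genes passed an adjusted p-value of 0.05 by edgeR's quasi-likelihood test, and the lowest adjusted p-value was 0.333 (Ndufs6b). Across all tested genes the same test called 0 (0.0%). At an unadjusted p-value under 0.05, 2 of the 48 were found, against 2106 of all tested genes (13.7%). These were Ndufv3, higher in KO as were 7.63% of all tested genes, and Ndufs6b, lower in KO as were 6.07%. When the 6 libraries were taken as labelled, 0 of the 48 were called (lowest adjusted p-value 0.152) against 570 of all (3.71%), and 2 had an unadjusted p-value under 0.05 (22.2% of all). DESeq2 on the 5 samples called 0 of the 48 against 879 of all (5.72%), with 1 of the 48 at an unadjusted p-value under 0.05 (16.1% of all).

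Log2 differences (KO minus WT) ranged from -1.46 to 0.36, with 16 genes higher and 32 lower in KO (33.3% higher, against 47.5% of all tested genes). The median was -0.06, against -0.02 over all tested genes. The 95% interval lay within 1 of 0 on the log2 scale for 45 of the 48 genes, so that a change of 2-fold was outside the interval of nearly every gene. The exceptions were Ndufs6b, Ndufa4l2 and Ndufb4c. The interval lay within 0.5 of 0 for 16 genes. For the other genes, a log2 change of 0.5 in at least 1 direction was inside the interval. The count of genes higher in KO turned on single libraries: it was 9 without KO replicate 1, 8 without WT replicate 1, 29 without WT replicate 2, and 35 without KO replicates 2 and 3.

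**Figure D2:**
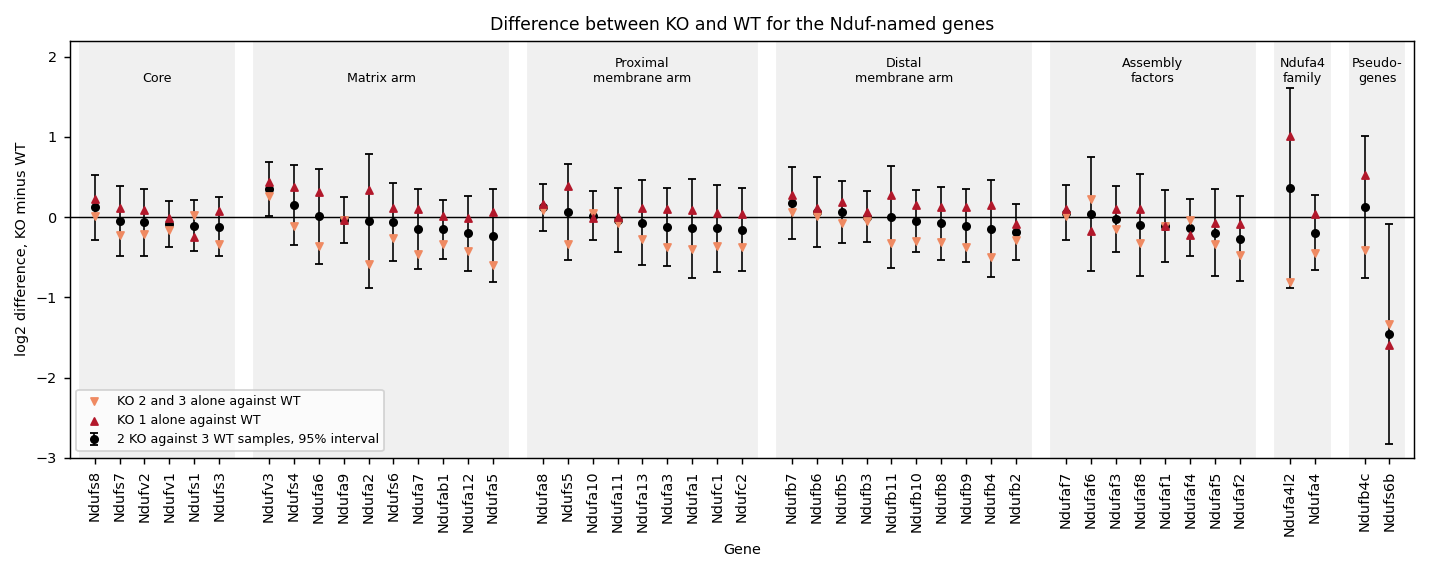
Log2 difference (KO minus WT) of 47 of the 48 Nduf-named genes, each with its 95% interval from 2 KO and 3 WT samples (black), and the difference of KO replicate 1 alone (red, upward triangles) or of KO replicates 2 and 3 alone (orange, downward triangles) against WT. All intervals drawn include 0 except those of Ndufv3 and Ndufs6b. Of all 48 genes, 35 were above 0 for KO replicate 1 alone and 9 for KO replicates 2 and 3 alone.

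In 7 genes the values of the KO and WT samples did not overlap, 2 higher in KO (Ndufv3 and Ndufa8) and 5 lower (Ndufaf2, Ndufb2, Ndufa12, Ndufs6b and Ndufv1). Across all tested genes this share was 28.6%, with 12.5% higher and 16.0% lower. In the following, FPKM values are given in the order of replicates 1, 2 and 3 of each group, and adjusted p-values are from edgeR. Means are given with SD over 2 KO and 3 WT samples. The KO SD is over replicate 1 and the mean of replicates 2 and 3, and so leaves out the spread between replicates 2 and 3.

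Of the core subunits, which carry the flavin and iron-sulfur clusters, 1 of 7 was higher and 6 were lower in KO, with none past the test (median log2 difference -0.06). Ndufs1 (chromosome 1, 63143596 to 63176822), the largest core subunit, had 8.01, 10.7 and 10.4 FPKM in KO and 10.6, 9.14 and 10.6 FPKM in WT. Only KO replicate 1 lay below the WT libraries, and the log2 difference was -0.11 (SE 0.134, adjusted p = 0.822). Ndufs3 (chromosome 2, 90894634 to 90904827), an early-assembled core subunit, had 18.9, 15.5 and 15.3 FPKM in KO and 20.1, 18.4 and 18.4 FPKM in WT. Here it was KO replicates 2 and 3 that lay below the WT range, and the log2 difference was -0.12 (SE 0.155, adjusted p = 0.831). The NADH-binding subunit Ndufv1 was tight in both groups, with 25.6, 25.3 and 24.7 FPKM in KO and 26.7, 26.0 and 29.3 FPKM in WT. Its groups did not overlap, but the log2 difference was no more than -0.09 (SE 0.123, adjusted p = 0.845). Ndufv2, Ndufs7 and Ndufs8 had log2 differences of -0.06, -0.05 and 0.12.

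Among the 10 accessory subunits of the matrix arm, 3 were higher and 7 lower in KO. Ndufv3 (chromosome 17, 31520115 to 31531331), which exists in a short and a long form by alternative splicing and sits beside the NADH-binding core subunits, had the only unadjusted p-value under 0.05 of any subunit. It stood at 11.7, 10.3 and 12.2 FPKM in KO and at 9.73, 9.36 and 8.20 FPKM in WT. Each KO library was above each WT library, by means of 11.4 ± 0.298 and 9.10 ± 0.803 FPKM, and the log2 difference was 0.35 (SE 0.144, 95% interval 0.01 to 0.69, unadjusted p = 0.0441, adjusted p = 0.348). Leaving out any 1 library gave 0.27 to 0.41. Ndufa12 (chromosome 10, 94198720 to 94221443) had 8.75, 6.96 and 7.24 FPKM in KO and 8.84, 10.02 and 8.98 FPKM in WT. KO replicate 1 nearly touched the WT range, and the log2 difference was -0.20 (SE 0.198, adjusted p = 0.751).

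Ndufa2, a small subunit with a thioredoxin-like fold, showed how far the libraries of 1 group can lie apart. It had 97.9, 56.3 and 55.0 FPKM in KO and 54.8, 106 and 82.1 FPKM in WT. The groups covered the same range, and the log2 difference was -0.05 with an interval of -0.89 to 0.78. The remaining 7 subunits of this arm were Ndufs4 (0.15), Ndufa6 (0.01), Ndufa9 (-0.04), Ndufs6 (-0.06), Ndufa7 (-0.15), Ndufab1 (-0.15) and Ndufa5 (-0.23), each given with its log2 difference.

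**Figure D3:**
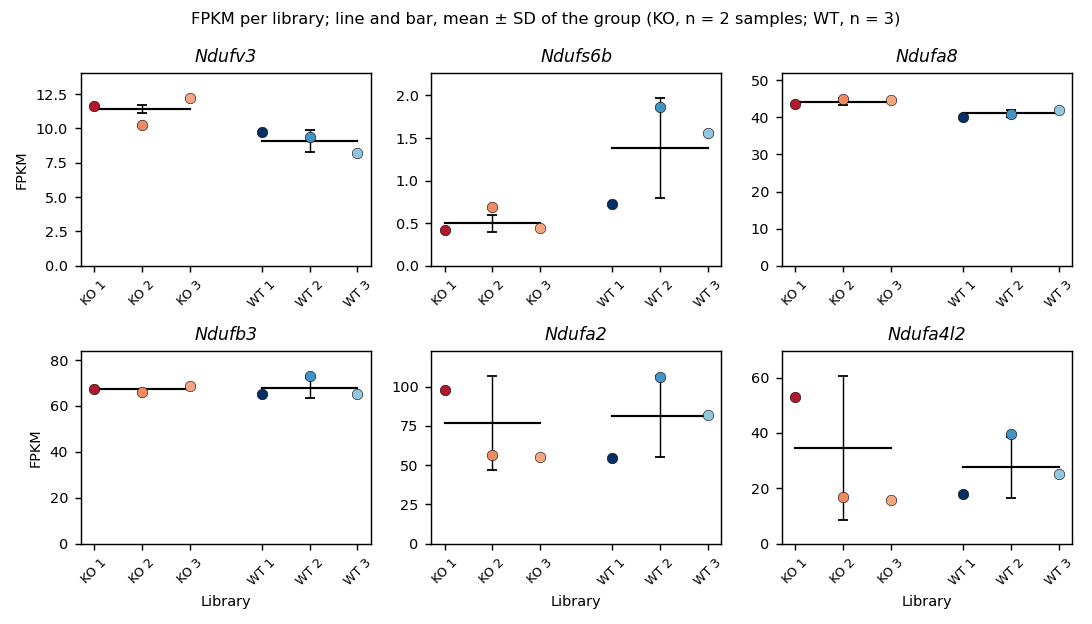
FPKM of 6 Nduf-named genes in each library (KO red and orange, WT blue), with the mean as a line and the SD as a bar over 2 KO samples (KO replicate 1 and the mean of replicates 2 and 3) and 3 WT samples. Ndufv3 and Ndufa8 lie higher and Ndufs6b lower in every KO library than in every WT library, Ndufb3 has nearly equal means (67.4 and 67.9 FPKM), and in Ndufa2 and Ndufa4l2 KO replicate 1 stands apart from KO replicates 2 and 3.

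The 9 accessory subunits of the proximal membrane arm had 3 genes higher and 6 lower (median -0.07). Ndufa8 (chromosome 2, 36036326 to 36049406), a subunit of the intermembrane-space face with paired cysteine motifs, varied little between libraries. It had 43.5, 44.9 and 44.8 FPKM in KO and 40.1, 41.0 and 42.0 FPKM in WT. Each KO library lay above each WT library, but the log2 difference was 0.12 (SE 0.125, adjusted p = 0.759). Ndufc2 (chromosome 7, 97400003 to 97407802) had 49.4, 38.2 and 42.3 FPKM in KO and 42.7, 61.0 and 48.0 FPKM in WT. WT replicate 2 was the highest library, and without it the log2 difference moved from -0.15 (SE 0.217, adjusted p = 0.846) to 0.03. The others ranged from -0.14 (Ndufc1) to 0.07 (Ndufs5), and included Ndufa13, also known as GRIM-19, at -0.07. The span of Ndufa13 lies wholly within that of Yjefn3 on the same strand, which had a mean of 0.515 FPKM.

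In the distal membrane arm, 5 of 10 accessory subunits were higher and 5 lower in KO (median -0.03). Ndufb3 (chromosome 1, 58586384 to 58595964) is a small membrane subunit. The study measured its transcript by RT-qPCR in young against aged cartilage, and its text gives no such measurement for KO against WT. In the libraries, Ndufb3 had 67.4, 66.0 and 68.6 FPKM in KO and 65.4, 73.0 and 65.3 FPKM in WT. Means were 67.4 ± 0.0470 and 67.9 ± 4.42 FPKM, and the log2 difference was 0.01 with a 95% interval of -0.31 to 0.32 (adjusted p = 0.992). Its sign changed with the settings, between -0.06 and 0.09. Ndufb11 (chromosome X, 20615326 to 20617619), a subunit with a single membrane helix, had 93.4, 66.6 and 67.8 FPKM in KO and 61.1, 102 and 81.0 FPKM in WT. Both groups spanned a similar range, and the log2 difference was 0.00 (95% interval -0.63 to 0.63). Ndufb2 (chromosome 6, 39592574 to 39603382) had 3.77, 3.81 and 3.30 FPKM in KO and 4.19, 4.34 and 4.19 FPKM in WT. The groups did not overlap, at means of 3.66 ± 0.155 and 4.24 ± 0.0884 FPKM, and the log2 difference was -0.19 (SE 0.148, adjusted p = 0.669). Ndufb7 (chromosome 8, 83566671 to 83571626), another subunit with paired cysteine motifs, had 15.6, 14.6 and 14.6 FPKM in KO and 11.5, 16.2 and 12.9 FPKM in WT. Its KO libraries lay inside the WT range, and the log2 difference was 0.17 (SE 0.190, adjusted p = 0.784). The other 6 ranged from -0.14 (Ndufb4) to 0.06 (Ndufb6).

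Assembly factors named Ndufaf were lower in 6 of 8 cases (median -0.11). Ndufaf2 (chromosome 13, 108002715 to 108158623), a paralog of Ndufa12 that holds its place in a late intermediate, had 2.34, 2.04 and 1.85 FPKM in KO and 2.46, 2.82 and 2.61 FPKM in WT. Every KO library was below every WT library, as was also seen for Ndufa12 itself, and the log2 difference was -0.27 (SE 0.226, adjusted p = 0.700). Smim15 overlaps Ndufaf2 on the opposite strand and had a mean of 21.8 FPKM, and whether strand was used in counting is not given in the sources used here. Ndufaf5 (chromosome 2, 140170649 to 140203689), which hydroxylates an arginine of Ndufs7, had 3.27, 2.94 and 3.00 FPKM in KO and 3.25, 3.88 and 3.76 FPKM in WT. Its groups overlapped at KO replicate 1 and WT replicate 1, and the log2 difference was -0.20 (SE 0.230, adjusted p = 0.802). Ndufaf7, a methyltransferase, had a log2 difference of 0.06, Ndufaf6 of 0.04, Ndufaf3 of -0.02, Ndufaf8 of -0.10, Ndufaf4 of -0.13 and Ndufaf1, a partner of Acad9 and Ecsit in an early assembly complex, of -0.11.

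Ndufa4 and Ndufa4l2 carry the family name but differ from the rest in function. Ndufa4 is now counted as a subunit of complex IV, and its paralog Ndufa4l2 is induced by HIF-1 under low oxygen. Ndufa4 (chromosome 6, 11900292 to 11907483) had 74.7, 57.4 and 58.2 FPKM in KO and 70.0, 89.5 and 71.1 FPKM in WT. KO replicate 1 lay inside the WT range and KO replicates 2 and 3 below it, and the log2 difference was -0.19 (adjusted p = 0.773). Ndufa4l2 (chromosome 10, 127514967 to 127517053) varied most of all subunit genes, with 52.9, 16.7 and 15.8 FPKM in KO and 18.1, 39.5 and 25.03 FPKM in WT. KO replicate 1 was above the WT range and KO replicates 2 and 3 below it. The log2 difference was 0.36 (SE 0.529, 95% interval -0.88 to 1.61, adjusted p = 0.855), but it was -0.81 without KO replicate 1 and 1.01 without KO replicates 2 and 3. The summed chondrocyte markers were also highest in KO replicate 1 (1465 FPKM) and WT replicate 2 (852 FPKM), as was Ndufa4l2, and lowest in WT replicate 1 (617 FPKM), KO replicate 2 (644 FPKM) and KO replicate 3 (653 FPKM). Prg4 alone made up 64.1 to 70.6% of this sum. Of the 11 chondrocyte markers with a mean of at least 0.5 FPKM, 8 were highest in KO replicate 1, whereas Cnmd, Col2a1 and Col11a1 were highest in WT replicate 1. Col11a1 was at 5.67 FPKM in KO replicate 1 and 16.3 FPKM in WT replicate 1. The summed FPKM of all genes was likewise highest in KO replicate 1 (442815) and WT replicate 2 (431002). It was lowest in KO replicate 2 (364556), KO replicate 3 (366757) and WT replicate 1 (382942). The parts of the chondrocyte share and of the library-wide sum in these values were not tested.

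The annotated pseudogene Ndufs6b (chromosome 7, 81161397 to 81161744), a copy of the matrix-arm subunit gene Ndufs6, gave the largest difference. It had 0.425, 0.695 and 0.441 FPKM in KO and 0.727, 1.86 and 1.55 FPKM in WT. Each KO library was below each WT library, though KO replicate 2 and WT replicate 1 were close, and the log2 difference was -1.46 (SE 0.581, 95% interval -2.82 to -0.09, unadjusted p = 0.0401, adjusted p = 0.333). Its reads may be shared with Ndufs6, which had a log2 difference of -0.06 at a level of 35.5 FPKM, so the value of Ndufs6b is uncertain. Ndufb4c, the other pseudogene, had a log2 difference of 0.13 (95% interval -0.76 to 1.01).

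Further genes of complex I outside the Nduf names were examined from lists of other assembly factors, mitochondrially encoded subunits and regulators. No gene of the 3 lists passed the adjusted threshold. Of 11 other assembly factors, 5 were higher and 6 lower in KO, with a lowest adjusted p-value of 0.617. That was Nubpl, which delivers iron-sulfur clusters to complex I, at 0.610, 0.670 and 0.637 FPKM in KO and 1.06, 0.752 and 0.719 FPKM in WT (log2 difference -0.39, SE 0.272). Tmem70, which helps to build the membrane arm and ATP synthase, had 11.9, 11.2 and 11.5 FPKM in KO and 12.7, 13.6 and 13.6 FPKM in WT (log2 difference -0.18, SE 0.150, adjusted p = 0.700). For both, all KO libraries were below all WT libraries.

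The 7 mitochondrially encoded subunits were all lower in KO, with log2 differences from -0.28 to -0.06 (median -0.18) and adjusted p-values of 0.614 or more. All but mt-Nd6 are cut from a shared precursor transcript and so are not independent of each other. The lowest was mt-Nd2 (mitochondrial genome, 3914 to 4951), with 873, 781 and 778 FPKM in KO and 1085, 983 and 998 FPKM in WT, which did not overlap (log2 difference -0.28, SE 0.194). In mt-Nd4l (9877 to 10173) the groups overlapped, with 471, 587 and 586 FPKM in KO and 685, 535 and 606 FPKM in WT (log2 difference -0.19, SE 0.142, adjusted p = 0.659). Among 7 regulators of respiratory genes tested, 5 were higher and 2 lower. Tfam, which packages and transcribes mitochondrial DNA, had 6.82, 6.54 and 6.33 FPKM in KO and 9.08, 7.97 and 7.84 FPKM in WT. Its groups stood clear of each other, and the log2 difference was -0.30 (SE 0.138, unadjusted p = 0.0648, adjusted p = 0.406). Esrra, a nuclear receptor for genes of oxidative metabolism, had 8.55, 7.95 and 8.01 FPKM in KO and 6.82, 7.87 and 6.85 FPKM in WT (log2 difference 0.22, SE 0.153, adjusted p = 0.616), also without overlap. Nrf1, Gabpa and Yy1, whose motifs were searched above, had log2 differences of -0.10, 0.07 and 0.05. Ppargc1a, a main coactivator of these factors, had a mean of 0.0305 FPKM and was not tested.

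The libraries differed more than the groups, and many of the 48 genes moved together from library to library. On the log2 CPM scale (counts scaled by TMM to a common library size) and relative to the WT mean, the 48 genes had medians of 0.11, -0.27 and -0.26 in the KO libraries and of -0.21, 0.21 and -0.01 in the WT libraries. Over all tested genes these medians lay between -0.03 and 0.01. WT replicate 1 had 42 of the 48 genes below the WT mean and WT replicate 2 had 42 above it, so the spread within WT was as wide as the distance between KO replicate 1 and the other KO libraries. WT replicate 2 was the highest of the 6 libraries in 29 of the 48 genes, against 16.1% of all tested genes.

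**Figure D4:**
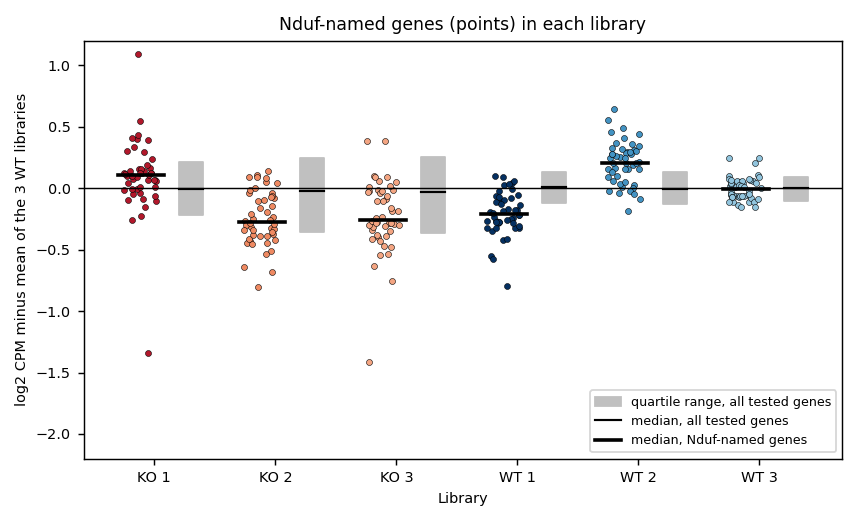
Log2 CPM of each Nduf-named gene minus the mean of the 3 WT libraries (points), with the median of the 48 genes (thick line) and, beside it, the median and quartile range of all tested genes (grey), for each library. The 48 genes sit above the WT mean in KO replicate 1 and WT replicate 2 (medians 0.11 and 0.21) and below it in KO replicates 2 and 3 and WT replicate 1 (-0.27, -0.26 and -0.21).

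Between the KO samples the order was the same for most genes. On the log2 CPM scale, KO replicates 2 and 3 were both below KO replicate 1 in 40 of the 48 genes (44.0% of all tested genes). They were both below all WT libraries in 19 (28.8% of all tested genes), and KO replicate 1 was inside the WT range in 33 (41.1%). By FPKM, KO replicates 2 and 3 were both below KO replicate 1 in 33 genes and below all WT libraries in 19. The shares of all tested genes were not computed for FPKM. Compared with WT, the median log2 difference was -0.29 for KO replicates 2 and 3 alone, with 9 of 48 genes higher (46.1% of all tested genes), and 0.10 for KO replicate 1 alone, with 35 of 48 higher (48.6%). The mean of these KO samples thus lay near WT while the samples themselves lay on either side of it. Beside this, the 10 most counted genes took 15.3, 8.46 and 8.50% of the KO counts and 11.3, 14.1 and 13.3% of the WT counts, and the summed skeletal muscle markers stood at 250, 5.75 and 4.93 FPKM in KO and 50.3, 95.3 and 463 FPKM in WT. Their part in the result was not tested.

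The same shift was seen with transcript length. Over the 46 genes that are not pseudogenes, Spearman's rho between transcript length and the log2 difference was 0.46 for KO replicates 2 and 3 alone, -0.38 for KO replicate 1 alone and 0.03 for both samples together. Over 15355 tested genes with a length, the values were 0.20, -0.21 and 0.01. These describe genes within the same libraries, which are not independent replicates. The 23 Nduf-named genes with transcripts under 1000 bases had a median of -0.36 for KO replicates 2 and 3 and of 0.11 for KO replicate 1, and all 2709 tested genes of this length had -0.24 and 0.12. Tested genes of at least 4000 bases had 0.09 and -0.11. Short transcripts in general thus differed between the KO samples in the direction seen for the Nduf-named genes, and the part of length in their values was not tested.

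**Figure D5:**
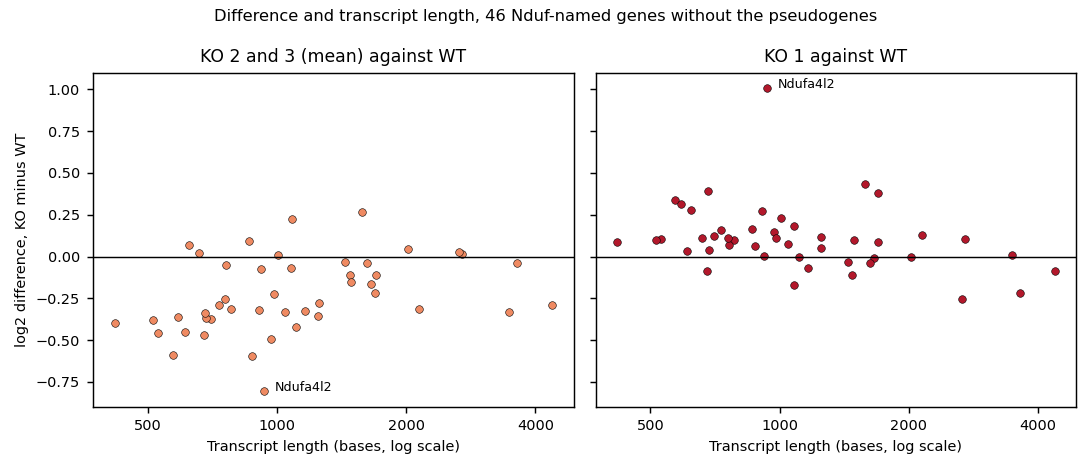
Transcript length (bases, log scale) against the log2 difference from WT for the 46 Nduf-named genes that are not pseudogenes, for KO replicates 2 and 3 (mean, left) and KO replicate 1 (right). Most short transcripts lie below 0 on the left and above 0 on the right (rho 0.46 and -0.38), and Ndufa4l2 is the lowest point on the left and the highest on the right.

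Nuclear genes of the other respiratory complexes and of the mitochondrial ribosome were set beside those of complex I. The 46 tested subunit genes of complexes II to V had 14 higher and 32 lower in KO, with a median log2 difference of -0.04, and the 78 genes of mitochondrial ribosomal proteins had 31 higher and 47 lower, also with a median of -0.04. For KO replicates 2 and 3 alone the medians were -0.21 and -0.17, and for KO replicate 1 alone 0.10 and 0.07. In WT replicates 1 and 2 the complexes II to V stood at -0.20 and 0.19 and the ribosomal proteins at -0.16 and 0.16, on the log2 CPM scale relative to the WT mean. In all 3 groups of genes the medians of KO replicate 1 and WT replicate 2 were above the WT mean and those of KO replicates 2 and 3 and WT replicate 1 below it. No difference between the groups of genes was tested.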

How the data were processed

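RNA from articular cartilage was sequenced by the authors after oligo(dT) capture, as strand-specific libraries with molecular identifiers and paired reads of 150 bp. The submitters' processing notes name cutadapt 1.9, HISAT2 2.0.4, UMI-tools, StringTie 1.3.4d, DESeq2 and edgeR, without roles. The authors deposited 1 table (GRCm38 positions) with an FPKM value and a count per gene and library. The deposited FPKM values were scaled within each library. The deposited counts were treated as estimated counts: they were whole, but 6596 values stood at 4 against 4170 at 3 and 2332 at 5, so a count was not taken to be a read pair. Total counts were 52268311 to 63331135 per library. A floor of 3 counts came to at most 0.0574 CPM and covers counting error only. All per-sample columns were used.

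Sample titles gave the group and replicate number of each library. The knocked-out gene and the values of 1 Nduf-named gene, which is kept in the counts and medians, are not reported here. The study's methods state that independent samples were used throughout, but neither they nor the labels assign libraries to animals, so p-values measure the spread between these samples, which may be technical. Counts of KO replicates 2 and 3 were averaged and rounded. Testing of genes averaging 0.5 FPKM or more was done with edgeR 4.0.16 (quasi-likelihood, TMM scaling, R 4.3.3) with Benjamini-Hochberg adjustment over 15373 genes. Alternatives were DESeq2 1.42.0, limma 3.58.1 on log2(FPKM + 1) and log2(FPKM + 0.1), median-of-ratios scaling, quantile normalization, no filter, a minimum of 5 FPKM, the 6 libraries as labelled, a replicate block and libraries left out. The scripts were tested on simulated data. Transcript lengths were the longest protein-coding transcript per gene (the longest of any kind where there was none) in GENCODE vM21.

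The Nduf-named genes, role lists, marker lists and tests were chosen with earlier results of these data known. Values in every library are given for the 2 genes of each role list with the smallest unadjusted p-values, members past an unadjusted p-value of 0.05 without overlap, Ndufb3, the highest and lowest members, Ndufa4 and Ndufa4l2, and the 2 with the smallest unadjusted p-values of each list of other genes. Ndufa2, Ndufv1 and the printed sequences were chosen after their values were seen.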

Additional observations from a re-analysis of the deposited data

How the results depend on the processing

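No Nduf-named gene passed the adjusted threshold under any of the alternatives tried. The count at an unadjusted p-value under 0.05, 2 in the main analysis, was 1 with DESeq2, with limma at pseudocounts of 1 and 0.1 FPKM, without a filter and with the replicate block, and 0 with a minimum of 5 FPKM (42 genes) or quantile normalization. It ranged from 0 to 2 with 1 library left out. The number of genes higher in KO, 16, was 10 with the replicate block and 35 without KO replicates 2 and 3, and ranged from 8 to 29 with 1 library left out. The median log2 difference, -0.06, ranged from -0.29 (without KO replicate 1) to 0.044 (without WT replicate 2) and was 0.10 without KO replicates 2 and 3. It was -0.11 with the 6 libraries as labelled.

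Replicate numbers did not pair the samples: deviations of same-numbered libraries from their group means correlated at -0.14, -0.11 and -0.06. With the replicate number as a block, the median was -0.12 and 0 genes passed the adjusted threshold.

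Of 331 values of 21 named genes under the alternatives, 26 changed sign and 305 did not. Ndufb11, at 0.00, was -0.10 with 6 libraries, -0.0070 with limma at both pseudocounts, -0.037 with a minimum of 5 FPKM, -0.071 with quantile normalization and -0.090 with the block, and ranged from -0.32 to 0.23 with 1 library left out. Ndufb3, at 0.01, was -0.012 with 6 libraries, -0.0090 and -0.0089 with limma at 0.1 and 1 FPKM, -0.038 with the minimum of 5 FPKM, -0.057 with quantile normalization and -0.0087 with the block, and ranged from -0.050 to 0.091 with 1 library left out. Ndufa4l2 was -0.16 with the block, and the ranges were -0.81 to 0.75 for Ndufa4l2, -0.15 to 0.030 for Ndufs1 and -0.37 to 0.034 for Ndufc2. Without KO replicates 2 and 3, Ndufa4 was 0.034, Ndufc2 0.039 and Ndufs3 0.076. The cause was not tested.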
